A study of Homo sapiens with 2 samples.

Results

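NEAT1 and MALAT1, neighbouring genes for nuclear long noncoding RNAs on human chromosome 11, were examined for NUDT21 on chromatin. The 2 members were chosen by name from GENCODE release 44, out of 38726 genes for long noncoding RNAs (lncRNAs) and proteins. All peaks from 5 kb before the NEAT1 start to 5 kb past the MALAT1 end were taken (hg38, chr11:65417774-65513073, 95300 bp). Cells of J.gamma1, a T-ALL (T-cell acute lymphoblastic leukemia) line derived from Jurkat that lacks phospholipase C gamma 1, were taken in 2 biological replicates. They were profiled by CUT&Tag, in which an antibody, here against NUDT21, brings a transposase to chromatin and the DNA released there is sequenced. The labels name no treatment and both replicates form 1 group, so no groups could be tested against each other, and no control sample was analysed here. The window held 31 of 92722 peaks on chromosomes 1 to 22, X and Y in replicate 1 and 26 of 66671 in replicate 2 (28.5 ± 3.54, SD, n = 2). The median peak of the lists rested on 30 and 20 fragments at its summit.

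Both RNAs are abundant, unspliced for the most part, and retained in the nucleus. NEAT1 makes a short isoform, which is cleaved and polyadenylated, and a long isoform, which is the scaffold of paraspeckles and reads through the short isoform's poly(A) site. NUDT21 and CPSF6 form cleavage factor Im, which binds UGUA in RNA and favours cleavage at the short NEAT1 end, while HNRNPK opposes it. MALAT1 gathers in nuclear speckles. Its 3′ end, like that of long NEAT1, carries no poly(A) tail: RNase P cuts just before a tRNA-like small RNA, and a triple helix of RNA guards the end that is left. CUT&Tag reads chromatin, so a peak gives a position on DNA, without strand, and not binding to RNA.

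NEAT1 (ENSG00000245532.11) lies on the plus strand at chr11:65422774-65445540 and has 9 annotated transcripts. The short isoform, NEAT1-201, has 2 exons and ends at 65426457. It is 1 of 6 NEAT1 transcripts that end within 100 bp of that base. The long isoform, NEAT1-202, is a single exon from 65422798 to 65445540. A tRNA-like RNA of 58 bases (ENSG00000275948) begins at the next base. MALAT1 (ENSG00000251562.11) lies 52099 bp downstream on the same strand, at chr11:65497640-65508073, and has 66 annotated transcripts, of which MALAT1-202 is a single exon over the whole gene. The annotation carries on for 1957 bp past the RNase P end at 65506116, where a tRNA-like RNA of 57 bases (ENSG00000274072) begins. TALAM1, the antisense RNA of MALAT1, starts at 65507432 on the minus strand, within that stretch, and runs back to 65499312.

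The ends of the transcripts are shown because the peaks are placed against them. They are printed 5′ to 3′ on the plus strand of hg38. In the short NEAT1 end (chr11:65426348-65426528) capitals mark TGTA, the DNA form of UGUA, and AATAAA, the poly(A) signal. The annotated end is base 110 of it. In the ends of long NEAT1 (chr11:65445461-65445598) and MALAT1 (chr11:65506037-65506173) capitals mark the tRNA-like RNA, which follows 80 bases of the longer RNA.
NEAT1 short end: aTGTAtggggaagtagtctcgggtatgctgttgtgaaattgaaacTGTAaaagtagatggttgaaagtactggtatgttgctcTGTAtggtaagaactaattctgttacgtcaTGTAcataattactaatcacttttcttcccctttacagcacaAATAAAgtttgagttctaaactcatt
NEAT1 long end: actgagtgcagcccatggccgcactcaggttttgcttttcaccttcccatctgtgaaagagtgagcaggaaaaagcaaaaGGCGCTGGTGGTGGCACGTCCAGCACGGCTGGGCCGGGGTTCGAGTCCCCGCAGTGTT
MALAT1 end: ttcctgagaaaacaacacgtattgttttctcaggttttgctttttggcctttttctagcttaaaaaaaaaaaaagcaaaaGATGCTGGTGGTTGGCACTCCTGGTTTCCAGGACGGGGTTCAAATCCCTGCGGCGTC

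The 3 ends differed in their words. The last 100 bases of the short NEAT1 isoform held 2 TGTA on the transcript strand, 64 and 26 bases before the end (position -64 and -26). As many or more were found before 10.3% of 18756 lncRNA gene ends and 17.6% of 19970 protein-coding gene ends. Further copies before the short NEAT1 end stood at -108 and -123, the latter outside the printed stretch. The last TGTA marked in that stretch lies past the annotated end and before the AATAAA. No TGTA was found in the last 200 bases of long NEAT1, of MALAT1 before its tRNA-like RNA, or of the annotated MALAT1 gene. AATAAA began 46 bases after the annotated short end, at chr11:65426503-65426508, and 2 NEAT1 transcripts ended past its first base, the latest at 65426513. The ends of long NEAT1 and MALAT1 were also aligned with each other, with gaps allowed. Their tRNA-like RNAs were identical at 40 aligned bases, 70.2% of the shorter, and the 80 bases before them at 54 aligned bases (67.5%). The share that unrelated sequences reach in this way was not computed. The run gcaaaa stood directly before the RNase P cut in both.

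Peaks covered a large share of the window, though not evenly. They lay over 48.0% of it in replicate 1 and 42.6% in replicate 2. Of 25172 windows of the same length that hold a gene, 500 had a larger share in replicate 1 and 339 in replicate 2, and the median was 0. The fold is MACS's ratio at the summit of the fragment pile-up to its local background, each with 1 added, and it was ranked only within its own list. The folds of the window in replicate 1 lay between 3.09 and 23.4 with a median of 5.80, and 26 of 31 peaks lay above the list's median of 3.95. In replicate 2 they lay between 3.10 and 22.2 with a median of 6.78, and 24 of 26 lay above the list's median of 4.23. In the top decile of the list were 15 and 14 of these peaks (background 9.94% and 10% of all peaks), and in the top percent 6 and 4 (background 1% and 0.999%).

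The replicates shared most of the window's peaks. In replicate 1, 23 of 31 (74.2%) touched a peak of replicate 2, against a background of 56.4% over the list. In replicate 2, 25 of 26 (96.2%) touched one of replicate 1, against 85.7%. Merged, the peaks formed 30 regions, of which 21 were found in both replicates, 8 in replicate 1 alone and 1 in replicate 2 alone. All 6 regions of NEAT1 were found in both, between the percentiles of 90.8 and 99.6 of the fold in replicate 1 and 88.4 and 99.5 in replicate 2. The regions found in 1 replicate alone lay mostly between the genes, at percentiles from 39.7 to 92.3.

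**Figure D1:**
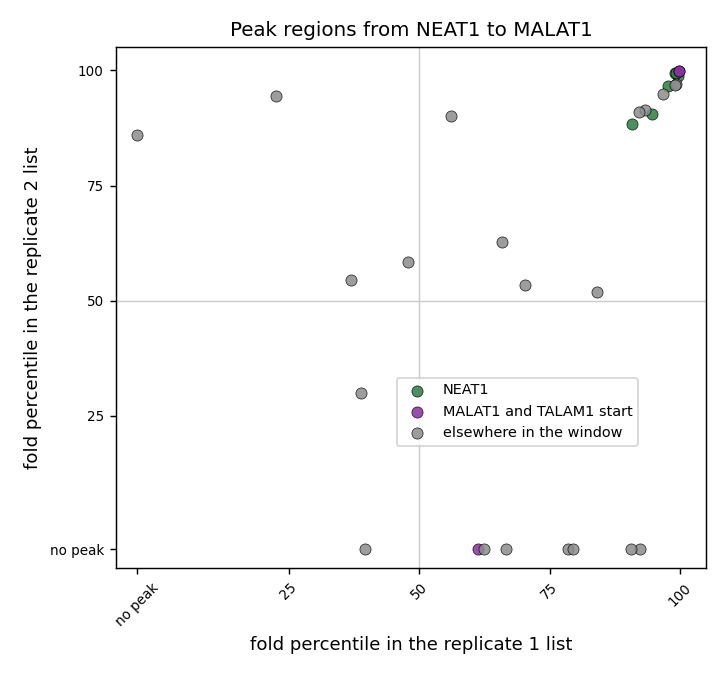
Each point is 1 of the 30 merged peak regions of the window, placed by the percentile of its highest fold within the list of replicate 1 (horizontal) and of replicate 2 (vertical), with regions lacking a peak in a replicate set at "no peak" and grey lines at 50. All 6 regions of NEAT1 and both strong regions of MALAT1 sit in the upper right corner, while 9 regions lack a peak in 1 replicate.

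The MALAT1 start carried the highest peak of the window in both replicates. In replicate 1 it spanned chr11:65495910-65498654 with its summit 3 bp before the annotated start and a fold of 23.4, rank 110 of the list. In replicate 2 it spanned chr11:65495920-65498649 with its summit 74 bp before the start and a fold of 22.2, rank 29. The summits lay 71 bp apart, and the intervals were nearly the same. At the summit 202 fragments were recovered in replicate 1 (95% exact Poisson interval 175 to 232, counting error only) over a control level of 7.0. In replicate 2 there were 83 (66.1 to 103) over 2.78. Only 11 of 10184 other lncRNA genes of at least 5 kb had a peak of higher fold in replicate 1, and 4 in replicate 2. The peak took in the start of ENSG00000270117, an unnamed antisense lncRNA within MALAT1. It ended short of the internal start, 1405 bp past the gene start, near which 33 of the 66 MALAT1 transcripts begin.

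The sequence at the strongest summit is shown with the bases from one replicate's summit to that of the other in capitals (chr11:65497520-65497669, plus strand). The gene starts at base 121. It held 20 CG and had 74% G or C.
MALAT1 start: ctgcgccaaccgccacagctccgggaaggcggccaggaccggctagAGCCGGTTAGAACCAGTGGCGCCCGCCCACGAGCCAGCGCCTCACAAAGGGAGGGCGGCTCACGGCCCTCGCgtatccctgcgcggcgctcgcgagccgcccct

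The NEAT1 start was also under a peak in both replicates, though the place and rank of the summit differed. In replicate 1 the peak spanned chr11:65421077-65424196, with its summit 115 bp before the annotated start, a fold of 16.7 (percentile 99.6) and 92 fragments (74.2 to 113) over a control level of 4.15. In replicate 2 it spanned chr11:65421039-65424161, with its summit 553 bp past the start, a fold of 10.8 (percentile 98.7) and 37 fragments (26.1 to 51.0) over 2.52. The edges nearly matched, but the summits lay 668 bp apart. It was the highest NEAT1 peak in replicate 1 and only the third in replicate 2. The stretch up to the annotated start, which is base 131 of it, is shown with the summit base of replicate 1 and a TATAAA in capitals (chr11:65422644-65422793, plus strand, 63.3% G or C, 12 CG). The TATAAA begins 7 bases before the start of NEAT1-201 and 31 bases before that of the long isoform, which is annotated 24 bases further on.
NEAT1 start: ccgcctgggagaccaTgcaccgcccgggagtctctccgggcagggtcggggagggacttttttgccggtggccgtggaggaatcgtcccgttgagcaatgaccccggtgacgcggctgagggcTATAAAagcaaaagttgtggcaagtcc

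A start under a peak was not common among lncRNA genes. Both replicates had one over the start of 12.7% of 18756 lncRNA genes and of 31.9% of 19970 protein-coding genes. NEAT1 and MALAT1 both belonged to that share. A peak of higher fold than the highest of NEAT1 was found on 55 of 10184 other lncRNA genes of at least 5 kb in replicate 1 and on 42 in replicate 2.

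No peak lay over the poly(A) end of the short NEAT1 isoform in either replicate. The start peak stopped well before it, and bases 1501 to the short end had 0% cover in both. The gap ran over 2894 bp in replicate 1 (chr11:65424197-65427090) and 2807 bp in replicate 2 (chr11:65424162-65426968). The next peak lay inside the part of NEAT1 that the long isoform alone transcribes, at chr11:65427091-65428719 in replicate 1 and chr11:65426969-65428718 in replicate 2. Its summit stood 963 bp past the short end in replicate 1 and 999 bp past it in replicate 2 (981 ± 25.5 bp, SD, n = 2), and its near edge 634 and 512 bp past it. From the last base of the AATAAA, the mean distance of the summit was 930 bp. The fold was 13.0 in replicate 1 (percentile 99.0) with 71 fragments (55.5 to 89.6) over a control level of 4.09. In replicate 2 it was 13.4 (percentile 99.5) with 57 fragments (43.2 to 73.9) over 3.34. Unlike those at the start, these summits lay only 36 bp apart, and in replicate 2 this was the highest peak of the gene.

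A gap means that fewer fragments were found than a call needs, not that there were none. To reach the lowest −log10 p in the list, 18 fragments were needed in replicate 1 at the list's median control level of 6.0, and 13 in replicate 2 at 3.90. At the lowest control level recovered in the window the need was 11 and 8 fragments, and at the highest 37 and 19. The level inside the gaps was not recovered, since the files hold peaks alone.

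**Figure D2:**
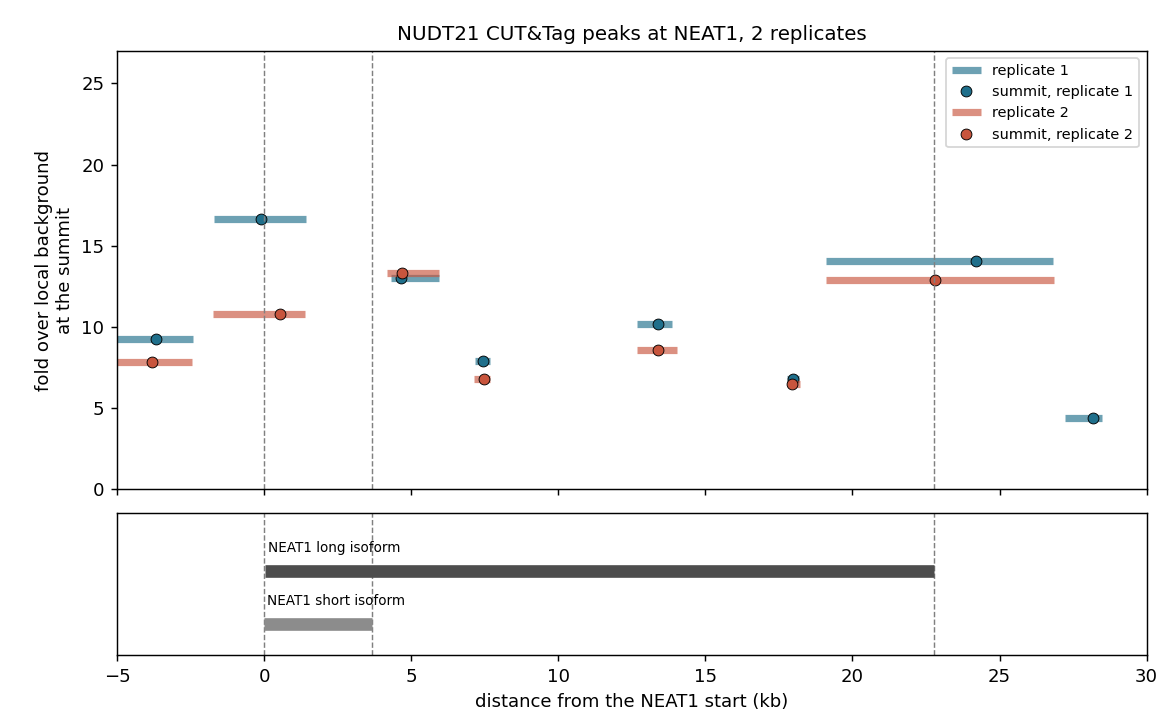
Peaks of replicates 1 and 2 along NEAT1 are drawn as bars from edge to edge at the height of their fold, with a dot at each summit, against the distance from the NEAT1 start in kb, and the lower panel draws the span of both isoforms. Dashed lines mark the start, the short end and the long end: the start peak stops before the short end, a peak follows about 1 kb past it, and a broad peak crosses the long end.

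Further along the long isoform 3 smaller peaks stood at matching places in both replicates. The nearest, at chr11:65429936-65430456 in replicate 1 and chr11:65429900-65430456 in replicate 2, had a fold of 7.94 (42 fragments) and 6.82 (21 fragments). The middle one, at chr11:65435444-65436643 and chr11:65435444-65436796, had its summit at the same base, 65436172, in both. Its fold was 10.2 with 65 fragments in replicate 1 and 8.61 with 34 in replicate 2. The last, at chr11:65440564-65440964 and chr11:65440570-65440982, had a fold of 6.80 (35 fragments) and 6.48 (21 fragments). All 3 therefore ranked below the peaks at the start, past the short end and at the long end.

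The long end of NEAT1 lay inside one of the longest peaks of each list. It spanned 7704 bp in replicate 1 (chr11:65441877-65449580) and 7769 bp in replicate 2 (chr11:65441859-65449627), the percentiles of 99.2 and 99.5 of peak length. MIR612, a microRNA gene within NEAT1, and the tRNA-like RNA both lay within it. The fold was 14.1 in replicate 1 (percentile 99.2) with 95 fragments (76.9 to 116) over 5.29. In replicate 2 it was 12.9 (percentile 99.4) with 56 fragments (42.3 to 72.7) over 3.42. The summit stood 1432 bp past the end in replicate 1 and 54 bp past it in replicate 2, inside the tRNA-like RNA, so the summits were 1378 bp apart within the same broad peak. The 4 kb after the end were covered whole in both. Ends under a peak in both replicates were found for 4.56% of all lncRNA genes and 10.4% of protein-coding genes, and for 11.6% of the 1030 lncRNA genes of at least 5 kb whose start was under a peak in both.

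MALAT1 showed a different layout along its body. Past the start peak there was no peak for 6674 bp in replicate 1 (chr11:65498655-65505328) and for 7970 bp in replicate 2 (chr11:65498650-65506619). Within the RNA, replicate 1 had 1 small peak of 303 bp at chr11:65505329-65505631, with a fold of 4.40 (percentile 61.3) and 18 fragments (10.7 to 28.4). Replicate 2 had none there. The cover from base 1501 to the RNase P end was thus 4.34% and 0%, against 67.7% and 67.3% of the first 1500 bases. The RNase P end itself was under no peak in either replicate, unlike that of NEAT1.

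A second strong MALAT1 peak stood just past the RNase P end. It spanned chr11:65506627-65510678 in replicate 1 and chr11:65506620-65508578 in replicate 2, so that it began 511 and 504 bp past the end. Its fold was 20.3 (rank 181, percentile 99.8) with 131 fragments (110 to 155) over 5.0 in replicate 1. In replicate 2 the fold was 16.8 (rank 104, percentile 99.8) with 72 fragments (56.3 to 90.7) over 3.34. The summits stood 884 and 868 bp past the RNase P end, only 16 bp apart. They lay 432 and 448 bp inside TALAM1 from its start, which the peak covered in both. A peak past the MALAT1 end and a peak at the TALAM1 start cannot be told apart at this place. In replicate 1 the peak ran on for 4052 bp, where replicate 2 had 3 separate peaks, the others with folds of 4.61 and 6.18.

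**Figure D3:**
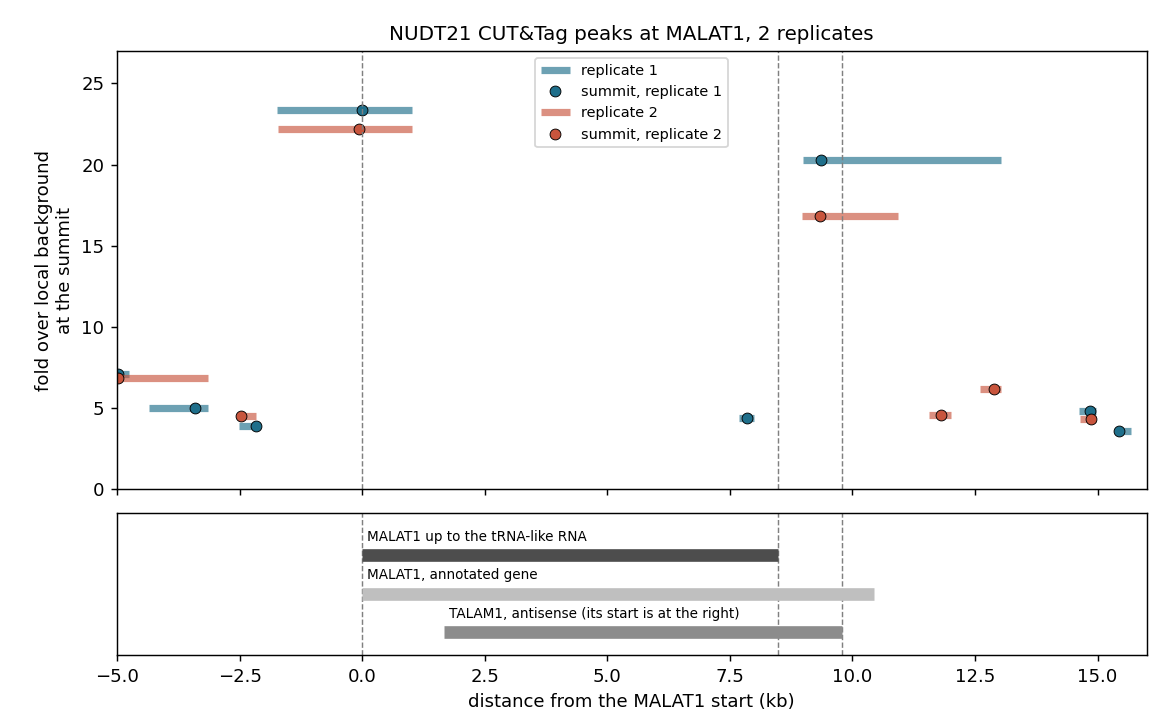
Peaks of replicates 1 and 2 along MALAT1 are drawn as bars from edge to edge at the height of their fold, with a dot at each summit, against the distance from the MALAT1 start in kb, and the lower panel draws MALAT1 up to its tRNA-like RNA, the whole annotated gene and TALAM1. Dashed lines mark the MALAT1 start, the RNase P end and the TALAM1 start: strong peaks lie at the start and past the RNase P end, and between them there is only 1 small peak, in replicate 1.

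Set beside each other, the 5 landmark peaks kept only part of their order. The MALAT1 start had the most fragments in both replicates. In replicate 1 its interval (175 to 232) lay apart from that of the peak past MALAT1 (110 to 155), but in replicate 2 the intervals overlapped (66.1 to 103 and 56.3 to 90.7). Among the 3 strongest NEAT1 peaks the intervals overlapped in both replicates. Overlap of such intervals is not a test of a difference between peaks, and none was made, so the order of these peaks was left undecided. Control levels at the 5 summits were 4.09 to 7.0 in replicate 1 and 2.52 to 3.42 in replicate 2. The MALAT1 start in replicate 1 had the highest of these, at the percentile of 61.5 of its list. Over all window peaks the median control level stood at the percentiles of 25.1 and 23.1. The part of the control level in the ranks was not tested. Fragments of the 2 replicates are not on 1 scale, as the absolute depth is unknown.

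**Figure D4:**
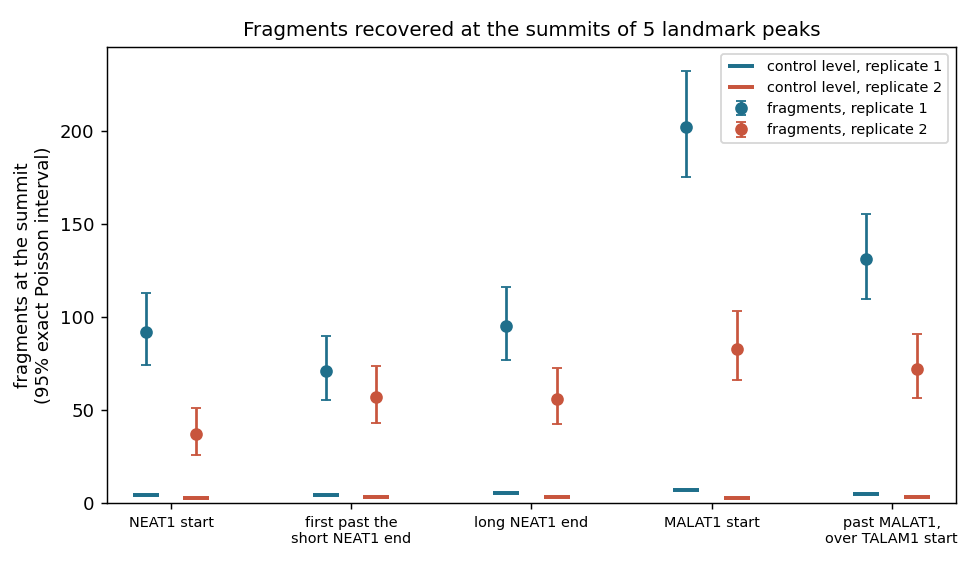
Dots give the fragments recovered at the summits of 5 landmark peaks in replicates 1 and 2, with 95% exact Poisson intervals that cover counting error only, and dashes give the control level on the same linear axis. The MALAT1 start stands highest in both replicates (202 and 83 fragments), and control levels stay at or under 7.0.

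Stretches with and without peaks differed in base composition. Those under peaks in both replicates made up 39.3% of the window and had 54.7% G or C and 5.77 TGTA per kb over both strands. Stretches without a peak in either replicate made up 48.8% and had 42.5% G or C and 10.2 TGTA per kb. The first 1500 bases of NEAT1 had 58.1% G or C with 94.9% and 92.5% under peaks. Bases 1501 to the short end had 42.1% and no cover, and MALAT1 from base 1501 to the RNase P end had 38.3%. TGTA is rich in A and T, so its density moves with base composition, and neither part was tested.

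Over the whole gene, peaks covered 38.8% and 40.2% of NEAT1 (39.5 ± 0.947%, SD, n = 2) and 26.5% and 23.6% of MALAT1 (25.1 ± 2.04%). Up to the RNase P end the share of MALAT1 was 15.5% and 11.9%. For NEAT1, cover of the part that belongs to the long isoform alone (38.9% and 40.6%) was near that of the short isoform (38.6% and 37.7%). Among 10184 other lncRNA genes of at least 5 kb, 428 were covered more than NEAT1 in replicate 1 and 251 in replicate 2, and 661 and 496 more than MALAT1. The median gene had no cover, and 6417 and 7294 of them were at 0. Among the 1029 others whose start lay under a peak in both replicates, NEAT1 stood only at the percentiles of 76.6 and 83.7 and MALAT1 at 67.2 and 72.3.

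**Figure D5:**
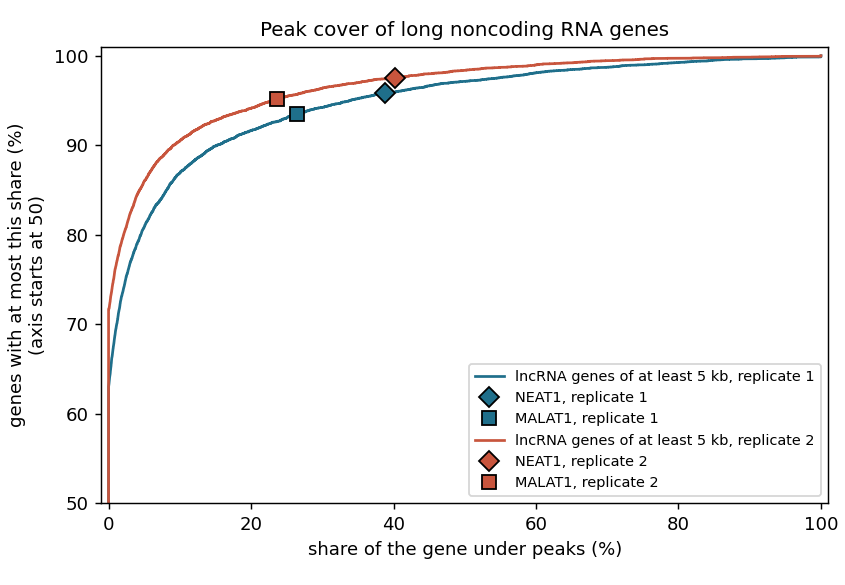
Lines give, for lncRNA genes of at least 5 kb in replicates 1 and 2, the percent of genes (vertical, from 50) with at most a given share of their length under peaks (horizontal, in percent). Diamonds mark NEAT1 (38.8% and 40.2% covered) and squares MALAT1 (26.5% and 23.6%), all at or above the percentile of 93.5 of the curves.

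The lncRNA genes with the cover most like each member were found by the distance between covered shares over the 2 replicates. For NEAT1 they were ENSG00000233191, ZFAND2A-DT, ENSG00000266088, ENSG00000257221 and ENSG00000239791, with 37.3% to 39.5% in replicate 1 and 37.4% to 42.6% in replicate 2. For MALAT1 they were ENSG00000286138, RRN3P3, GAS5, CAMSAP1-DT and LINC01128. GAS5, a small nucleolar RNA host gene, had 26.0% and 24.0%. All 10 were matched on cover alone.

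Of the 52099 bp between the genes, 51.6% lay under peaks in replicate 1 and 44.1% in replicate 2, which takes in parts of the peaks over the long NEAT1 end and the MALAT1 start. Peaks that lay wholly between the genes covered 40.5% and 33.0%. Replicate 1 had 19 of these with folds of 3.09 to 14.4 (median percentile 73.7), and replicate 2 had 14 with folds of 3.10 to 8.98 (median percentile 86.6). The highest, at chr11:65476399-65478287 in replicate 1 and chr11:65476272-65478287 in replicate 2, covered the unnamed lncRNA ENSG00000289883 whole. Its fold was 14.4 (percentile 99.3) and 8.98 (97.1). The annotation places 17 other genes in the window. Of its 9 lncRNA genes other than the members, 7 had their start under a peak in both replicates (ENSG00000290057, ENSG00000291174, ENSG00000289883, LINC02736, ENSG00000286756, ENSG00000270117 and TALAM1), against a background of 12.7%. The starts of ENSG00000289259 and ENSG00000290061 were under a peak in replicate 2 alone. FAUP4, a pseudogene, lay under the peak over the start of ENSG00000291174. Several of these genes share 1 peak with each other or with a member, so they are not separate observations.

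Before NEAT1, a single peak of 10773 bp in replicate 1 and 10280 bp in replicate 2 reached into the window from 8203 and 7731 bp outside it. It ended 2431 and 2452 bp before the NEAT1 start, with folds of 9.29 and 7.84.

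Genes for the proteins that act with these RNAs were examined for promoter peaks, taken as peaks within 3000 bp of a transcript start. Of 32 genes for paraspeckle proteins 28 had one in both replicates, where the background over protein-coding genes was 57.2%. SFPQ, NONO and PSPC1, the family of RNA-binding proteins at the core of paraspeckles, had folds of 9.69 and 8.50, 8.76 and 6.08, and 3.60 and 3.89 in replicates 1 and 2. The percentiles were 97.3 and 96.3 for SFPQ and 96.1 and 85.2 for NONO, but only 38.8 and 39.4 for PSPC1. RBM14, another paraspeckle protein, had folds of 7.11 and 8.01 (percentiles 92.1 and 95.2), and HNRNPK had 13.8 and 9.92 (99.2 and 98.1). Among the genes of cleavage factor Im, NUDT21 had 6.74 and 4.49 (90.6 and 57.4) and CPSF6 6.21 and 4.08 (87.5 and 45.3). CPSF7 had 6.60 and 5.94 (89.8 and 84.0).

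For nuclear speckle proteins, 19 of 20 genes carried such a peak in both replicates, against the same background of 57.2%. For the enzymes of the RNase P type of 3′ end it was 10 of 12, against 57.2%. Of these, POP5, a protein subunit of RNase P, had the highest folds, 13.7 and 8.98. POP1, another subunit, had the lowest, 2.71 (percentile 11.5) and 2.29 (percentile 0.561). ELAC2, the RNase Z that trims the other side of the tRNA-like RNA, had 7.62 and 7.21, and METTL16, a methyltransferase that binds the MALAT1 triple helix, had 7.15 and 5.68. RPP30 had none, and RPP38 had one in replicate 1 alone. Among 20 other long noncoding RNAs 16 had one in both, against a background of 28.1% over lncRNA genes. Many genes of these lists, though not all, are widely expressed, and neither that nor any share of them was tested.

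Peaks could not check the cell type. Promoter peaks in both replicates were found at 6 of 8 T-cell markers, 7 of 8 B-cell markers and 5 of 8 myeloid markers, against a background of 57.2% over protein-coding genes, and peaks are not expression.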

How the data were processed

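CUT&Tag with an antibody against NUDT21 was performed on 2 replicates of J.gamma1. Per the labels and the study's methods, the authors trimmed reads with fastp and mapped them to hg38 by Bowtie2 (2.2.5). Duplicates were removed, and MACS3 (3.0.1) called peaks in each replicate by itself. The calling options are not given in the sources used here, and a control library is not described. The deposited lists give the authors' fold (a ratio) at the summit, its −log10 p and −log10 q, and a score, which was not used.

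Fragments and control level at each summit were solved from both deposited values, fold and −log10 p, since MACS takes p from a Poisson tail. A solution within 0.02% was found for 100% of peaks in both lists, with pile-ups scaled by 0.921 in replicate 1. Tested on simulated data, this returned the right fragments for 100% of 1951 unscaled and 99.2% of 1949 scaled peaks. The simulated folds lay below those of the landmark peaks. The simulation used the same formula that was solved, so it cannot show whether that formula holds for the deposited lists.

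Genes came from GENCODE release 44. Peaks touched where they shared at least 1 bp. Covered shares are bases under merged peaks. The genes named are NEAT1, MALAT1, the other genes of the window, the 5 lncRNA genes nearest to each in cover, and members of the 3′ end, cleavage factor and core paraspeckle lists. The members and lists were chosen with earlier results of these data known. Both samples form 1 group, so values are given per replicate, with mean ± SD, and no test was made. Python 3.11.15, numpy 2.4.6, pandas 2.3.3 and scipy 1.17.1 were used. The alternatives tried concerned stricter peak lists, overlap rules, ranking, gene ends, comparison genes and each replicate by itself.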

Additional observations from a re-analysis of the deposited data

How the results depend on the processing

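Of 36 alternative values that could move, 16 stayed within the spread between replicates or 1.5 times the count, and 20 moved. Reversal was defined only for the signed distance from the short NEAT1 end, where it occurred 0 times. The other values could not reverse. Means over both replicates are given. With the 10000 peaks of lowest p per list, the window held 11 peaks and NEAT1 was covered to 36.5%. The percentiles of cover among lncRNA genes were then 98.8 for NEAT1 and 98.2 for MALAT1. From these short lists, 17 paraspeckle genes had a peak at the promoter in each replicate. The matching share of all protein-coding genes was not computed, so whether 17 lies above it is unknown. The promoter background given earlier belongs to the full lists. Shared window peaks fell from 85.2% to 60.1% with a reciprocal overlap of 50%, and to 56.6% with summits within 200 bp. The share over all peaks was not computed under these rules. Ranked by −log10 p, the highest NEAT1 peak stood at 99.0. From the short NEAT1 end the nearest peak edge lay at 573 bp. Percentiles of cover became 87.0 for NEAT1 and 81.3 for MALAT1 among protein-coding genes, and 98.9 and 95.8 over stretches of the member's length. The last 50 bases of the short end held 1 TGTA and the last 200 held 4. Of alternatives chosen after seeing the data, lncRNA genes with a start peak gave percentiles of 80.1 and 69.8, a short end at AATAAA or at the latest transcript end gave 930 and 925 bp, and MALAT1 up to its tRNA-like RNA was covered to 13.7%. The cause of these moves was not tested beyond the construction of each alternative. The 16 values with either replicate left out are those of the other replicate, and with 2 replicates they cannot pass the spread, so they say nothing of stability. Another 4, the fold percentiles under stricter lists, were ranked in the full lists and could not change. No paired analysis was possible because the 2 libraries make up a single group. Absolute depth is unknown, and a stretch without a peak can still hold fragments below the calling limit.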
